A study of Mus musculus with 27 samples.

Results

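Genes for the enzymes that conjugate drugs, hormones and other small molecules were examined for DNA methylation in mouse hepatocytes. The genes were chosen by symbol from the GRCm38 gene table: protein-coding genes named Ugt or Sult with a number, or Gst with the class letter a, k, m, o, p, t or z and a number. The rule took 65 of the 21887 protein-coding genes on chromosomes 1 to 19, X and Y: 22 Ugt, 21 Sult and 22 Gst genes. The rule itself uses no measured value, but the genes were chosen with earlier results of these data known.

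UDP-glucuronosyltransferases (Ugt) attach glucuronic acid to a substrate, sulfotransferases (Sult) attach sulfate, and glutathione S-transferases (Gst) attach glutathione to reactive compounds. The products are more soluble in water and leave the liver in bile or blood, and the liver carries out much of this work in the body. DNA methylation is a mark on the cytosine of CpG dinucleotides, and CpG-rich gene starts are usually unmethylated while gene bodies and CpG-poor DNA are usually methylated.

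Hepatocytes, the parenchymal cells of the liver, came from 27 female mice aged 12 weeks, 3 of each of 9 inbred strains. Wild mice gave rise to CAST/EiJ, PWK/PhJ and WSB/EiJ. The other strains were A/J, C57BL/6J and DBA/2J, along with 129S1/SvImJ, NZO/HlLtJ and NOD/ShiLtJ. No group was treated and no strain served as a control, so the question of each comparison was whether methylation differed among strains, in a study that set epigenetic marks beside genetic variation. Methylation was read by reduced representation bisulfite sequencing (RRBS), which cuts DNA with MspI at CCGG and so reads CpGs close to such sites.

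Each sample had between 2904787 and 3156965 positions, each with a percent methylation and no read count, so the depth behind a value is unknown and no counting interval can be given. A position was used where it was listed in at least 2 of the 3 samples of every strain and lay within a gene's span or 2 kb either side. Of the 65 genes, 44 held at least 1 such position, or 67.7%, against 81.3% of all protein-coding genes. The 44 genes held 1122 distinct positions, 91 of them in more than 1 of these genes. A gene was tested where it held at least 3 positions, which left 39 of the 65. Neighbouring CpGs can share reads, and 1 CpG can be listed on both strands, so positions are not independent. Strains also differ in sequence, and a changed base at a CpG can alter a value; strain genomes were not used here, and their part in the results was not tested. Many of these genes stand in tandem arrays of similar copies, so reads may have been placed in a related copy, which was not tested either.

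The starts of 5 genes are printed to show how many CpGs were read in each. Each sequence is the window from 250 bases before to 50 after a transcription start, from RefSeq (build GRCm38.p6), written 5′ to 3′ on the strand of the gene. Capitals mark the CpGs read in these samples. Gstm3 is 1 of the 2 starts called different among strains, and Gstm1 is a nearby mu-class gene, the major one of mouse liver. Gstp1 and Gstp2 are tandem pi-class copies with opposite methylation, and Ugt2b1 is a gene with no listed position.
Gstm3, chr3:107969125-107969424, minus strand: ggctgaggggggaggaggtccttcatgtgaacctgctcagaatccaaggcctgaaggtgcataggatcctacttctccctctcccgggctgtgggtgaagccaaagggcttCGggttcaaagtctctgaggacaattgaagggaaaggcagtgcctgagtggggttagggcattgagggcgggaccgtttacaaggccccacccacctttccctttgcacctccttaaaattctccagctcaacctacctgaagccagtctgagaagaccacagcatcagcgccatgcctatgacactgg
Gstm1, chr3:108017924-108018223, minus strand: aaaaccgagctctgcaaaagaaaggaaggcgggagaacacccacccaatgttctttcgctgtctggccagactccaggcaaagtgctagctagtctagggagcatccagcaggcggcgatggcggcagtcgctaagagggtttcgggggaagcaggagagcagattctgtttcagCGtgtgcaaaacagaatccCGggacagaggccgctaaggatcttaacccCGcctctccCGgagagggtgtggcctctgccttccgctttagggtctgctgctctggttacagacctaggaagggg
Gstp1, chr19:4037863-4038162, minus strand: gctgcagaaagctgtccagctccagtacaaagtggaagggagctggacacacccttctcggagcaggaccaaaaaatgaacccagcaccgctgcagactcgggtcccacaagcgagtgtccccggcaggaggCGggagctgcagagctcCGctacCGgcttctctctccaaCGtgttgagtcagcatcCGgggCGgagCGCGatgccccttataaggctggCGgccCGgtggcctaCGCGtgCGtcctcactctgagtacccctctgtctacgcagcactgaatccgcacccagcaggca
Gstp2, chr19:4042172-4042471, minus strand: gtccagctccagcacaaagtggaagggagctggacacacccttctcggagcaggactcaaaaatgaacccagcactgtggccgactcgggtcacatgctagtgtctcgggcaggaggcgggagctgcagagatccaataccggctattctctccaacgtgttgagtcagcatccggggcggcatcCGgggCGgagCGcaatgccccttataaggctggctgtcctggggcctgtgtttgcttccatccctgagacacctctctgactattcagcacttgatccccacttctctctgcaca
Ugt2b1, chr5:86926454-86926753, minus strand: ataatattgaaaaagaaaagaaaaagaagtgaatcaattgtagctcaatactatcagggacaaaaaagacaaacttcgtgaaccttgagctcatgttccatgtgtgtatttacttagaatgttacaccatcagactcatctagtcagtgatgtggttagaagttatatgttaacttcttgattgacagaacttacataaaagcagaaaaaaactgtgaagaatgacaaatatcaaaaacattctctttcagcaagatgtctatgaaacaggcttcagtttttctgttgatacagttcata

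The Ugt2b1 window held 1 CpG and no CCGG, and no position of this gene was listed in any sample. Gstm3 had 5 CpGs and 1 CCGG in its window, and 1 CpG was read, on both strands. Gstp1 held 20 CpGs and 4 CCGG, and 13 of its CpGs were read. CCGG, which reads the same on both strands, occurred in 62.2% of the 21263 promoter windows of all protein-coding genes. It occurred in 64.3% of the 28 windows of Gst genes, in 10% of the 20 windows of Sult genes and in 5% of the 20 windows of Ugt genes. The median number of CpGs per window was 8 in Gst, 1.5 in Sult and 2 in Ugt genes, against 13 over all windows. Of the 19 windows of genes with no usable position, 5.26% held a CCGG. RefSeq windows were found for 57 of the 65 genes and not for Ugt1a6b, Gstt2, Ugt3a2, Sult4a1, Sult2a2, Sult2a1, Sult2a7 and Gsta4.

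The number of genes that could be measured, over the whole span and 2 kb either side, also differed by family. It did not follow the windows throughout, since all 9 Ugt1a genes and 15 of 21 Sult genes held a usable position. Of 10 Ugt2 genes, which glucuronidate steroids, bile acids and many drugs, only Ugt2a3 held a usable position. Of 6 Sult1 genes, which sulfate phenols and estrogens, none could be tested: 3 held no position and the others held 1 or 2. All 9 Ugt1a genes could be tested too, as could 17 of 22 Gst genes, 11 of 22 Ugt genes and 11 of 21 Sult genes. The 4 genes with no position in any sample were Ugt2b1, Ugt2b34, Ugt2b5 and Sult1d1.

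Gene starts are described first, as the mean of the positions within 1 kb of the most upstream RefSeq start. Of 17 starts with at least 3 positions, 11 had a mean below 10% and 2 a mean above 80%. Over all genes, 82.8% of 11436 starts lay below 10% and 5.32% above 80%. The median start of these genes was at 4.85%, against 0.979% over all starts.

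Gstp1 conjugates electrophiles and is a widely studied detoxication gene. Its 35 positions had a mean of 0.612%, with a lowest sample of 0%, a median sample of 0.508% and a highest sample of 2.07%. The strain means ran from 0.404% ± 0.205 (SD, n = 3) in NZO/HlLtJ to 1.09% ± 0.911 in CAST/EiJ. The start did not pass the test among strains (limma's moderated F test, Benjamini-Hochberg adjusted p = 0.879), a test that measures differences against the spread between the 3 samples of a strain. Gstp2, its neighbour, chosen for description after its values were seen, was at 92.0% over 5 positions between 54 and 65 bases upstream of its start. Its samples ran from 81.9% to 100%, with a median of 93.3%, so every sample was far above every sample of Gstp1. The Gstp1 and Gstp2 windows shared 77.8% of bases over their alignment and a longest identical run of 43 bases. The Gstp2 start did not pass the test among strains either (range of strain means 9.99 points, adjusted p = 0.499).

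The other Gst starts that were low in all strains belong to enzymes with varied substrates. Gstz1, which isomerises an intermediate of tyrosine breakdown, was at 0.493% over 88 positions. Gstk1, the kappa-class enzyme of mitochondria and peroxisomes, was at 0.557%, Gstt3 at 0.566%, Gstm4 at 0.577% and Gsto2, an omega-class reductase, at 0.607%. Gsto1, its omega-class neighbour, was at 4.85% over 59 positions and Gstm5 at 4.99% over 33. These starts were also chosen for mention after their values were seen. Outside the Gst family, the start of Ugt8a, which makes the galactolipid of myelin, was at 2.06% over 183 positions.

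Gstm1 was unmethylated close to its start and methylated farther upstream. Its 19 positions had a mean of 10.2%, with samples from 4.31% to 15.2% and a median of 10.99%. The 7 positions inside the printed window averaged 1.25%. The level climbed upstream of it: the position 535 bases before the start was at 18.6%, those at 576 and 577 bases were at 37.8% and 43.9%, and the one at 793 bases was at 74.5%. Strain means ran from 7.14% ± 2.53 in C57BL/6J to 13.6% ± 0.858 in NZO/HlLtJ, and the start did not pass the test (adjusted p = 0.239).

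**Figure D1:**
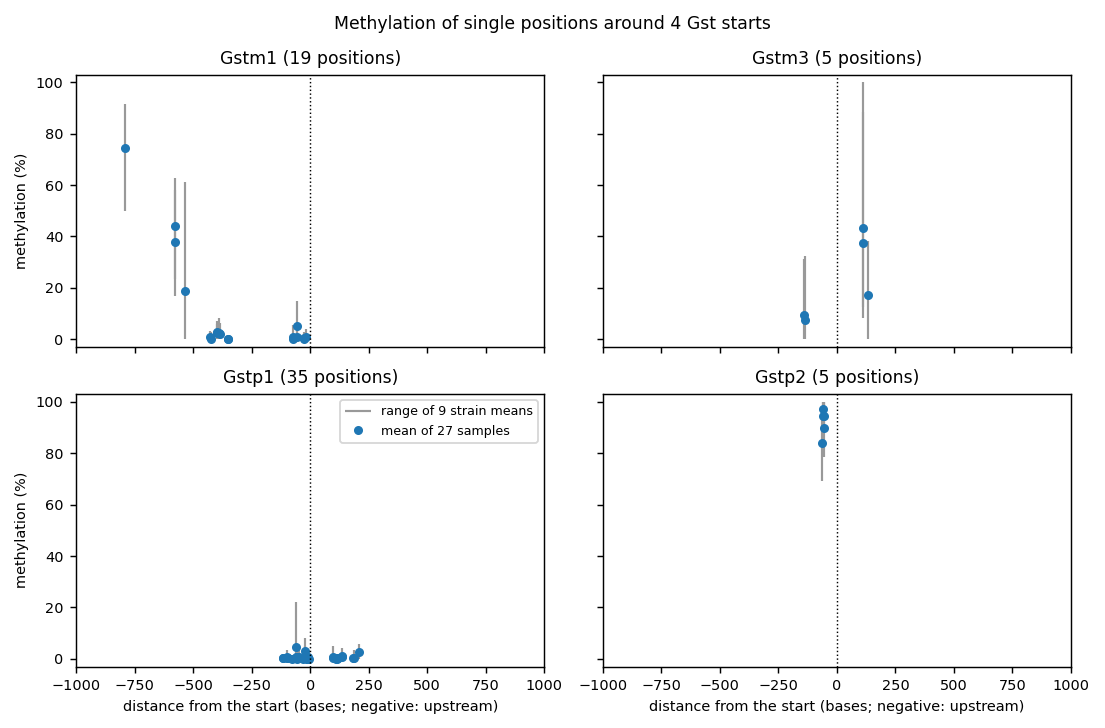
Methylation (%) of each usable position within 1 kb of the start of Gstm1, Gstm3, Gstp1 and Gstp2, against its distance from the start in bases. Dots are means of 27 samples and grey lines run from the lowest to the highest of 9 strain means. Gstp1 stays near 0 and Gstp2 lies above 80%, Gstm1 climbs upstream, and the lines of Gstm3 are long.

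Gstm3 had the start that stood apart in PWK/PhJ. The 3 PWK/PhJ samples were at 60%, 54.2% and 60%, a mean of 58.1% ± 3.37 (SD, n = 3). All 24 samples of the other strains were lower, between 0% and 35%. The means of the other strains ran from 14.7% ± 13.0 in DBA/2J to 23.2% ± 3.34 in WSB/EiJ, and within C57BL/6J the samples were spread from 5% to 35%. The 5 positions lie at 112, 113 and 132 bases after the start and at 138 and 139 bases before it, the last pair being the CpG in capitals in the printed window. PWK/PhJ had the highest strain mean at each of the 5. The position 112 bases after the start was at 100% in PWK/PhJ, and the next highest strain, WSB/EiJ, was at 54.6%.

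The difference of PWK/PhJ from the mean of the other 8 strains was 39.5 points (contrast in the limma fit of genes, adjusted p = 0.00116). The F test over the strains gave an adjusted p of 0.0308 for the gene and of 0.0498 for the start. Both rest on the same 5 positions, fitted and adjusted separately among all genes and among all starts. Leaving out any single PWK/PhJ sample ended the call for the gene, with an adjusted p between 0.0898 and 0.123, while the difference from DBA/2J was between 42.4 and 45.3 points. The call for the gene was also lost with an offset of 1 point in the transform of percent values (adjusted p = 0.108). The call at the start held in 5 of the 27 fits that each left out 1 sample.

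In Ugt1a7c, which is 1 of the first-exon genes of the Ugt1a locus, the start was higher in PWK/PhJ and WSB/EiJ. The 3 PWK/PhJ samples were at 79.3%, 79.2% and 79.4% and the WSB/EiJ samples at 75.1%, 79.6% and 85.0%. The strain means of the other 7 ran from 50.7% ± 6.36 in C57BL/6J to 70.1% ± 5.71 in A/J, where 1 A/J sample at 75.9% overlapped the WSB/EiJ samples. The range of strain means was 29.2 points (F test, adjusted p = 1.3e-05), and the call held in all 27 fits that each left out 1 sample. The start held 4 positions, and the one 298 bases after it had the widest range of them. That position was at 65.3% in PWK/PhJ and 49.5% in WSB/EiJ, and at 0% in C57BL/6J to 24.7% in A/J among the other strains. At each of the other positions of the start WSB/EiJ was the highest strain, at 87.5% to 93.7%. PWK/PhJ was at 81.8% to 85.9% there, below A/J or DBA/2J at each, so its higher start rests on the position at 298 bases.

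Gstm3 and Ugt1a7c were the 2 starts called, which needed strain means 10 points or more apart and an adjusted p under 0.05. That is 11.8% of the 17 starts tested, beside 5.40% of all starts. Of the other 15 starts, those of Gstm4 and Gstm5 had an adjusted p under 0.05 with smaller ranges of 1.19 and 6.89 points, which made 4 of 17 by the adjusted p alone, beside 18.9% of all starts.

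**Figure D2:**
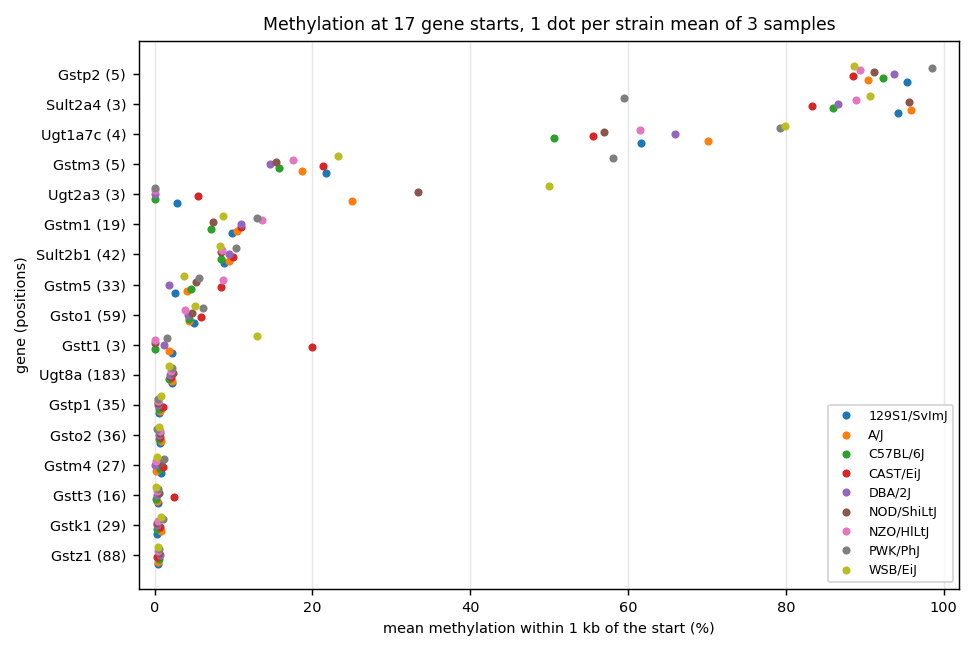
Mean methylation (%) within 1 kb of the start for the 17 gene starts with at least 3 usable positions, 1 dot per strain mean of 3 samples, with the number of positions in brackets. Most starts lie below 10% in all strains; Gstp2 and Sult2a4 lie above 80% on average, and Gstm3 has PWK/PhJ at 58.1% with the other strains below 25%.

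Over whole genes, the 39 genes tested ranged from 0.612% in Gstp1 to 96.9%, with intermediate levels such as 49.0% in Sult3a1 and 22.9% in Gstm3. The median level was 73.9%, against 22.5% over the 17198 genes tested, and the median range of strain means was 11.8 points, against 2.51. These genes held a median of 29 positions and all genes a median of 84, and the part of this in the ranges was not tested. Gst genes had a median level of 13.3%, Sult genes of 82.3% and Ugt genes of 74.6%. Among the 39 genes, 9 are Ugt1a genes with nested spans that share positions. The medians over the 39 genes and over the Ugt genes therefore count 1 locus 9 times. The 73.9% is the level of Ugt1a10 and Ugt1a9, and the 74.6% that of Ugt1a8 and Ugt1a7c. Medians with this locus counted once were not computed.

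Of the 39 genes, 14 differed among strains (range of 10 points or more with an adjusted p under 0.05), or 35.9%, beside 7.98% of all genes. With the adjusted p alone the share was 46.2%, beside 38.0%, and with the unadjusted p it was 59.0%, beside 46.4%. The 14 comprised 8 of 11 Ugt, 4 of 11 Sult and 2 of 17 Gst genes. The 8 Ugt genes all belong to the Ugt1a locus and share most of their positions, so counted as 1 gene they leave 7 calls. Grouped by number of positions after the data were seen, 4 of 12 genes with 3 to 10 positions were called, beside 21.7% of all such genes, 10 of 20 with 11 to 55, beside 14.8%, and 0 of 7 with 56 or more, beside 3.27%. Of those 7, 3 had an unadjusted p under 0.05. The 8 Ugt1a genes were in the second of these classes, so 8 of its 10 calls, and 8 of the 14, come from 1 locus. The shares of 35.9%, 46.2% and 59.0% count that locus at least 8 times. Shares with the locus counted once were not computed.

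**Figure D3:**
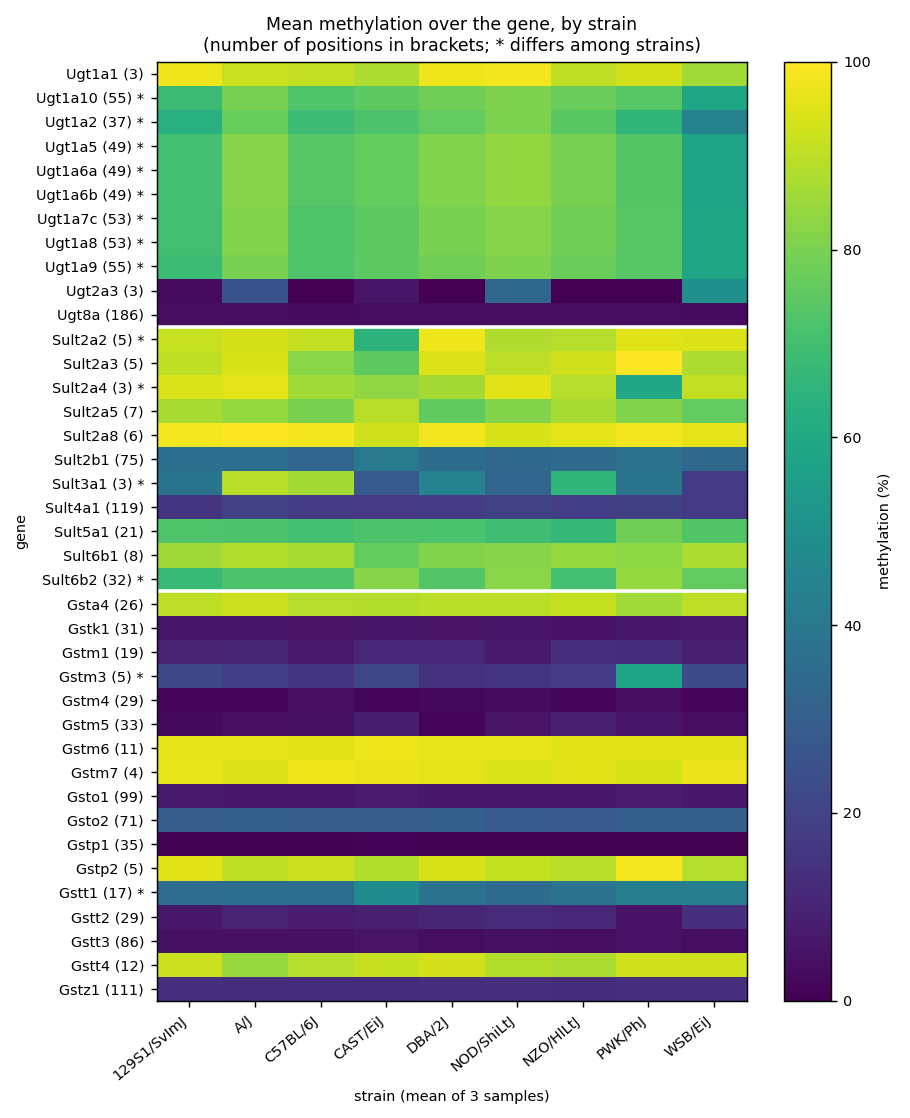
Mean methylation (%) over the gene in each strain for the 39 genes tested, in 3 blocks (Ugt, Sult, Gst), with the number of positions in brackets and a star for the 14 genes that differed among strains. Ugt1a genes are lowest in WSB/EiJ, Gstm3 is highest in PWK/PhJ, and Sult3a1 is high in A/J and C57BL/6J.

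The Ugt1a locus lies at chr1:88055411-88220002 on the plus strand. Its genes have separate first exons and share the remaining ones, so their spans are nested and end close together. Ugt1a1, which conjugates bilirubin, is the innermost. Ugt1a10 and Ugt1a9 held the same 55 positions, Ugt1a8 and Ugt1a7c the same 53, Ugt1a6b, Ugt1a6a and Ugt1a5 the same 49, Ugt1a2 37 of them and Ugt1a1 the last 3. Their values are therefore not separate measurements.

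WSB/EiJ was the lowest strain in all 9. In Ugt1a2 the WSB/EiJ samples were at 39.4%, 45.1% and 48.3%, a mean of 44.3% ± 4.54 (SD, n = 3). Each of the 24 other samples was higher, from 57.8% in a 129S1/SvImJ sample to 86.5% in a NOD/ShiLtJ sample. The difference from the mean of the other strains, 72.0%, was -27.7 points (adjusted p = 1.1e-05). In the 7 genes with wider spans it was between -16.7 and -20.1 points. WSB/EiJ was called lower in 9 of the 39 genes, these 8 and Sult3a1, or 23.1%, beside 0.640% of all genes. The 8 Ugt1a genes share most of their positions, so this share counts 1 locus 8 times. Ugt1a2 was also called higher in NOD/ShiLtJ, at 80.1% against 67.5% in the other strains, WSB/EiJ among them (adjusted p = 0.0122). Such a call was made in 1 of the 39 genes, beside 0.349% of all genes. The NOD/ShiLtJ samples were not separated from the other 24, and A/J was next with a mean of 76.6%.

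In the 8 genes called lower in WSB/EiJ, most positions lay in a short stretch that also belongs to another gene. Of the 55 positions, 34 lie between 88205583 and 88205745 on chromosome 1, inside Dnajb3 (chr1:88204732-88205748), a gene of the DnaJ chaperone family contained in the Ugt1a locus. In this stretch the WSB/EiJ samples were at 35.2%, 41.9% and 44.6%, and the other 24 samples between 54.1% and 85.4%. The strain mean was 40.6% in WSB/EiJ and 78.5% in NOD/ShiLtJ, the highest (F test on 1 kb tiles, adjusted p = 0.000125). WSB/EiJ was the single lowest strain at 24 of the 34 positions.

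Over the 21 positions of the locus outside Dnajb3, the WSB/EiJ mean was 88.9%, against 84.9% in the other 8 strains, and it was the single lowest strain at 1 position. At the 3 of these positions that make up Ugt1a1, WSB/EiJ had the lowest strain mean, 86.1%, and the gene did not pass the test (adjusted p = 0.10). Without the Dnajb3 positions, an alternative added after the data were seen, the NOD/ShiLtJ to WSB/EiJ difference turned from 21.6 to -4.90 points in Ugt1a10 and Ugt1a9. It turned to -4.92 points in Ugt1a8 and Ugt1a7c and to -0.123 in Ugt1a6b, Ugt1a6a and Ugt1a5. In Ugt1a2 it fell from 35.8 to 12.3 points. The call was lost in 6 of the 8 Ugt1a genes called: in Ugt1a2 by the test (adjusted p = 0.10), and in the others by a range of strain means under 10 points, 9.86 in Ugt1a10 and Ugt1a9 and 8.22 in Ugt1a6b, Ugt1a6a and Ugt1a5. Ugt1a8 and Ugt1a7c kept a call on their 19 remaining positions, with PWK/PhJ highest at 93.7% and CAST/EiJ lowest at 82.3% (adjusted p = 2.32e-05).

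**Figure D4:**
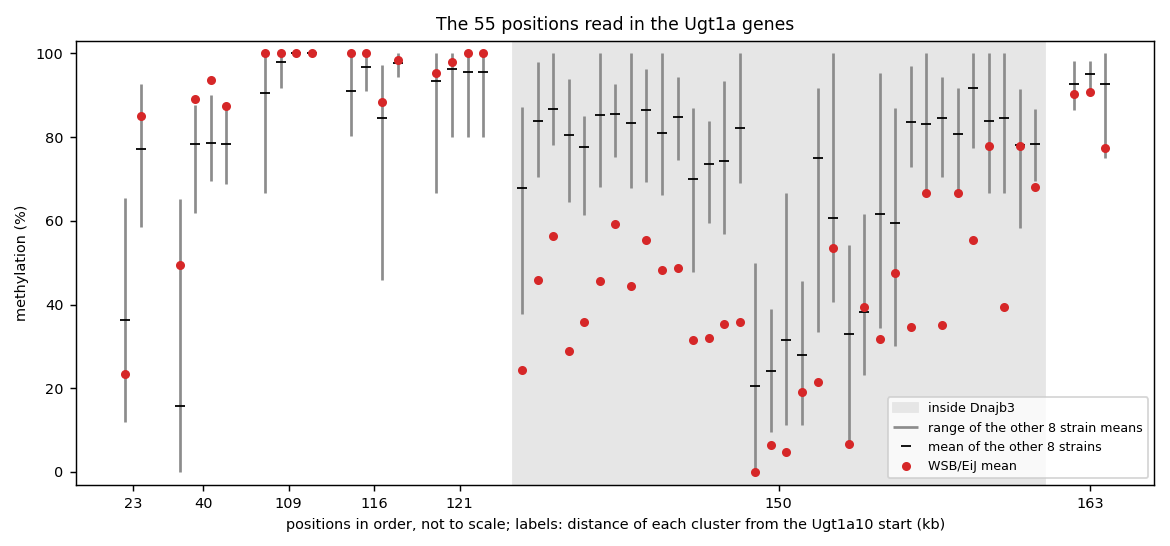
Methylation (%) of the 55 usable positions of the Ugt1a locus in order, labelled by distance from the Ugt1a10 start in kb. Red dots are WSB/EiJ means, black marks the mean and grey lines the range of the other 8 strain means, and the shaded block is inside Dnajb3. WSB/EiJ lies below the grey lines at many of the 34 shaded positions and at 1 of the 21 others.

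Away from Dnajb3, 4 positions of the locus differed among strains. The position at 88078872, in the Ugt1a10 and Ugt1a9 spans, was at 65.3% in C57BL/6J, 64.3% in CAST/EiJ and 62.6% in PWK/PhJ, and between 12.0% and 30.0% in the other 6 strains (F test on positions, adjusted p = 0.000283). The position at 88171637 was at 45.9% in CAST/EiJ and between 84.1% and 97.2% in the others (adjusted p = 0.0300). The remaining calls were the position 298 bases after the Ugt1a7c start and 88078933, lowest in 129S1/SvImJ at 58.6% and highest in CAST/EiJ at 92.6%.

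Ugt2a3 was the only Ugt2 gene tested, on 3 positions, and 4 of the 27 samples listed none of them. Those 4, in A/J, C57BL/6J, NOD/ShiLtJ and WSB/EiJ, were filled with the mean of the strain's other samples. WSB/EiJ was measured in 2 samples, at 0% and 100%, so its mean of 50% rests on values at opposite ends. The contrast against the other strains, at 8.33%, passed with the filled value counted as a sample (adjusted p = 0.0490, beside 0.256% of all genes called higher in WSB/EiJ). The F test over strains did not pass (adjusted p = 0.139), and a NOD/ShiLtJ sample at 66.7% lay between the WSB/EiJ samples.

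Among the sulfotransferases, Sult3a1, an amine sulfotransferase, had the widest range of strain means of any of the genes tested, 71.7 points over 3 positions at chr10:33852082-33852124 (F test, adjusted p = 0.000167). The A/J samples were at 93.3%, 84.0% and 90.9% and the C57BL/6J samples at 85.7%, 89.3% and 84.0%. The WSB/EiJ samples were at 5.28%, 27.3% and 20.5%, and the CAST/EiJ samples at 18.3%, 24.4% and 40.5%. A/J and C57BL/6J lay above all other samples, the highest of which was an NZO/HlLtJ sample at 82.2%. Within DBA/2J the samples were spread from 17.4% to 70.4%, and within NZO/HlLtJ from 37.3% to 82.2%. A/J was called higher by 45.5 points (adjusted p = 0.000769) and C57BL/6J higher by 42.0 points (adjusted p = 0.00356), each the only such call of its strain among the 39 genes, beside 0.762% and 0.198% of all genes. WSB/EiJ was called lower, at 17.7% against 52.9% (adjusted p = 0.00589). The 3 positions lie inside the span, 5598 to 5640 bases upstream of the listed RefSeq start.

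The Sult2a genes sulfate steroids and bile acids and stand in an array on chromosome 7. Sult2a2 was at 64.6% ± 6.85 (SD, n = 3) in CAST/EiJ, with samples at 72.0%, 63.2% and 58.5%. The sample at 63.2% listed 1 of the 5 positions and was filled at the other 4, so the SD rests mostly on 2 samples. Without that sample the difference between DBA/2J and CAST/EiJ was 32.1 points in place of 32.7 and the call held (F test, adjusted p = 0.00751). A C57BL/6J sample was also filled at 4 of the 5 positions and a PWK/PhJ sample at 3. With these filled values, the 24 other samples were all higher, from 79.7% to 100%, and their strain means ran from 88.1% ± 7.77 in NOD/ShiLtJ to 97.3% ± 2.31 in DBA/2J. The difference from the other strains, at 92.5%, was -27.9 points (adjusted p = 5.08e-05), the 1 gene of 39 called lower in CAST/EiJ, beside 0.686% of all genes. Of its 5 positions, the one at 13770589 was at 0% in both CAST/EiJ samples that listed it and at means between 75% and 100% in the other 8 strains (adjusted p = 0.000896). The CAST/EiJ sample that did not list it was filled with 0% there. Much of the difference over the gene comes from this position, and the difference was not computed without it. In Sult2a4, PWK/PhJ was at 67.5%, 44.4% and 66.7%, a mean of 59.5% ± 13.1, against 90.2% in the others (adjusted p = 0.00314), the 1 gene called lower in PWK/PhJ, beside 0.529% of all genes. A CAST/EiJ sample at 66.7% overlapped it, and another CAST/EiJ sample listed none of the 3 positions and was filled. Its F test was near the threshold (adjusted p = 0.0434) and failed when any of 18 samples was left out or with an offset of 1 point (adjusted p = 0.137). Sult2a3 was at 100% in PWK/PhJ and 88.4% in the others (contrast, adjusted p = 0.0176). However, a CAST/EiJ sample was also at 100%, and the F test of the gene did not pass (adjusted p = 0.0984). A PWK/PhJ sample was filled at 2 of the 5 positions of Sult2a3, and CAST/EiJ samples at 3 and at 2. Sult2a3 and Gstm3 were the 2 genes called higher in PWK/PhJ, beside 1.34% of all genes.

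Sult6b2 differed by less over the gene than within it. Over 32 positions the strain means ran from 67.6% ± 4.27 in 129S1/SvImJ to 84.1% ± 0.375 in PWK/PhJ (adjusted p = 9.54e-05). In a 1 kb tile of 11 positions, chr6:142788001-142789000, 15554 to 16027 bases after the start of the gene, the range was 48.4 points (adjusted p = 1.17e-05). There the PWK/PhJ samples were at 78.4%, 83.1% and 77.8% and the 129S1/SvImJ samples at 20.7%, 43.0% and 30.3%. NOD/ShiLtJ, at 65.3% to 81.4%, overlapped PWK/PhJ, and NZO/HlLtJ, at 27.8% to 42.3%, overlapped 129S1/SvImJ. So did A/J, at 33.0% to 48.0%, C57BL/6J, at 32.9% to 56.7%, and DBA/2J, at 36.9% to 47.3%. CAST/EiJ, at 61.5% to 71.8%, and WSB/EiJ, at 50.8% to 62.0%, lay between PWK/PhJ and 129S1/SvImJ without overlapping either. Of 37 single positions called in the conjugation genes, 8 were in Sult6b2, 7 of them in this tile.

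Sult2b1, which sulfates cholesterol and pregnenolone, was unmethylated at its upstream start, at 9.06% over 42 positions, and did not reach the minimum range over the gene (7.68 points). A tile of 10 positions at chr7:45742001-45743000 did differ. The C57BL/6J samples were at 58.6%, 46.5% and 56.8% and the NOD/ShiLtJ samples at 68.1%, 63.9% and 63.2%, below all samples of the other 7 strains, which lay between 71.5% and 94.9%. CAST/EiJ was highest, at 90.7% (adjusted p = 5.24e-07). The positions lie 347 to 430 bases after a second, internal RefSeq start of Sult2b1, and they lie in Gm31597 as well.

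Gstt1, a theta-class gene on chromosome 10, was the other Gst gene called, and is named although it was not among the 10 with the largest range. CAST/EiJ was at 46.9%, 46.0% and 53.1%, against 38.2% in the other strains (difference 10.4 points, adjusted p = 0.00233), the 1 gene called higher in that strain, beside 1.05% of all genes. WSB/EiJ samples at 46.2% and 49.5% overlapped it. With nothing filled for missing positions its call was lost (adjusted p = 0.0794).

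**Figure D5:**
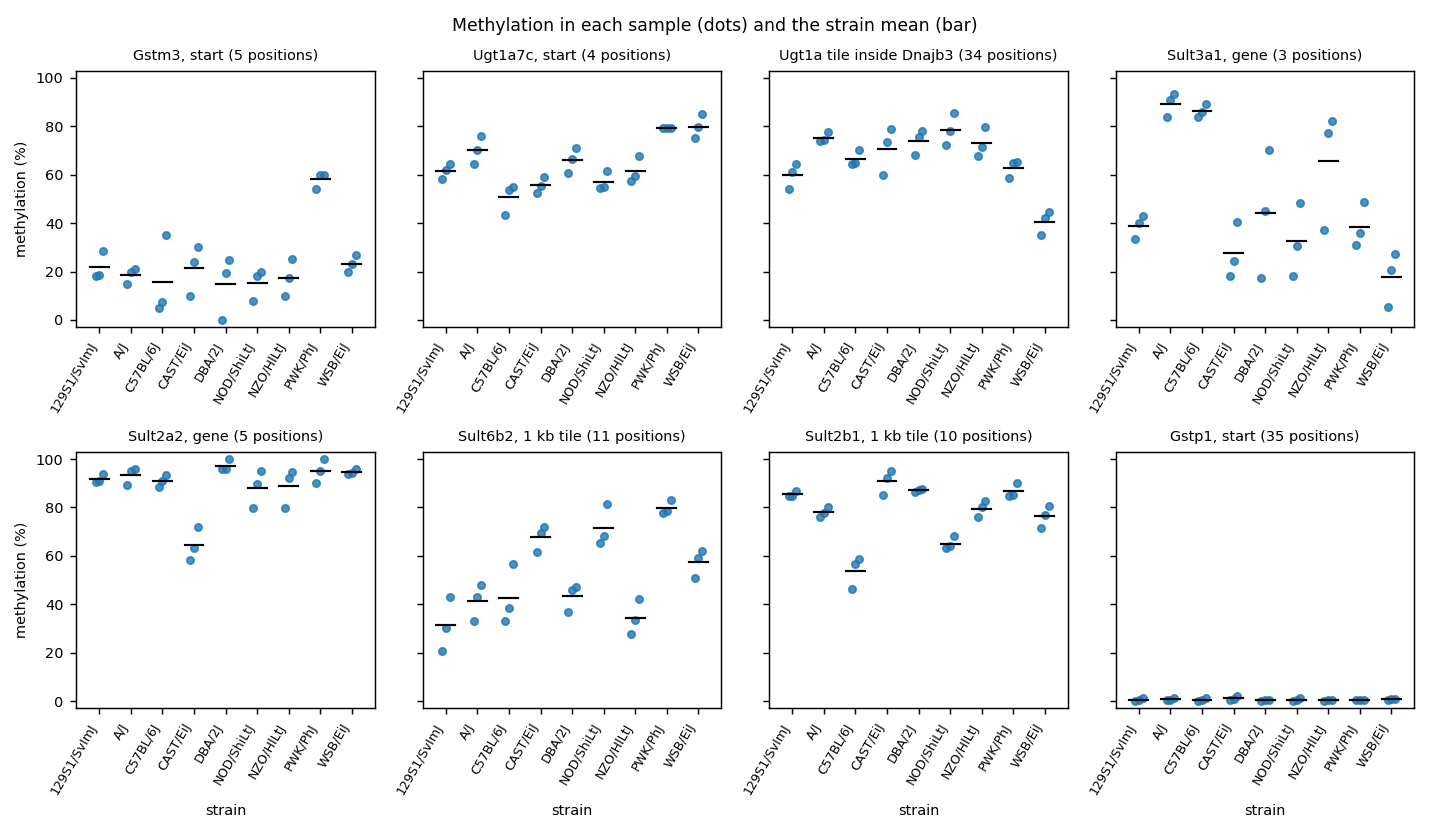
Methylation (%) in each of the 3 samples of every strain (dots) with the strain mean (bar), for 8 genes, starts or tiles. Gstm3 in PWK/PhJ, the Ugt1a tile inside Dnajb3 in WSB/EiJ and Sult2a2 in CAST/EiJ do not overlap the other strains, Sult3a1 is spread within DBA/2J and NZO/HlLtJ, and Gstp1 stays near 0.

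Counted by strain, there were 18 calls of a gene in a strain against the other 8, in 15 of the 39 genes, or 38.5%, beside 4.78% of all genes. Of the 18 calls, 8 were the lower level of WSB/EiJ in Ugt1a genes that share the Dnajb3 positions. By single positions, 37 of the 505 tested differed among strains (range of 25 points or more, adjusted p under 0.05), or 7.33%, beside 4.34% of all positions. Of the 37, 10 lie in a gene outside these families. By 1 kb tiles, 4 of 35 were called, or 11.4%, beside 8.30% of all tiles.

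Several called positions lie in genes whose mean did not differ or could not be tested, and are named after their values were seen. Gsta4 conjugates products of lipid peroxidation. Its position at chr9:78193532 had a mean of 7.14% in PWK/PhJ and between 54.8% and 100% in the other strains (F test on positions, adjusted p = 0.00024). A DBA/2J sample at 20% lay below a PWK/PhJ sample at 21.4%. In Gsto2, the position at chr19:47871775 was at 100% in 129S1/SvImJ and A/J and 88.9% in DBA/2J, and between 20.6% and 46.0% in the other 6 strains (adjusted p = 0.000214). A NOD/ShiLtJ sample at 71.4% lay above a DBA/2J sample at 66.7%. Also in Gsto2, the position at 47874997 was highest in WSB/EiJ at 40.5%, followed by C57BL/6J at 25.6%. The means of the other 7 strains were 10.7% or less (adjusted p = 0.000851). A C57BL/6J sample at 37.5% lay above a WSB/EiJ sample at 30.8%. The single usable position of Sult2a1 had a mean of 17.8% in CAST/EiJ and 44.4% in PWK/PhJ, with the others between 66.7% and 100% (adjusted p = 0.0155). It was listed in 23 of the 27 samples. A 129S1/SvImJ sample at 33.3% and a DBA/2J sample at 50% lay within the range of the PWK/PhJ samples.

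Genes that act with these enzymes were taken from lists of names. Of 8 genes for the synthesis of the donor molecules, such as Ugdh, Papss2 and Gclc, all 8 were tested and 0 called by limma's F test with the minimum range. Of them, 3 had an adjusted p under 0.05, beside 38.0% of all genes, and 5 an unadjusted p under 0.05, beside 46.4%. Their median level was 13.5% and median range 1.61 points. Of 12 other conjugation and detoxication enzymes tested, 1 was called. Inmt, an amine methyltransferase, ran from 71.8% ± 4.97 in C57BL/6J to 98.4% ± 1.45 in DBA/2J over 4 positions (adjusted p = 0.00462). WSB/EiJ, at 72.1% ± 12.9, and NZO/HlLtJ, at 74.7% ± 15.5, had means close to C57BL/6J with a wider spread. Of 9 regulators, 7 had an adjusted p under 0.05 and 2 of them also the minimum range, and both encode receptors that switch on conjugation genes in response to foreign compounds. Nr1i3 (the constitutive androstane receptor) ran from 56.7% ± 1.64 in C57BL/6J to 74.5% ± 2.40 in A/J over 37 positions (adjusted p = 1.72e-05). Nr1i2 (the pregnane X receptor) ran from 37.8% ± 3.24 in NZO/HlLtJ to 55.2% ± 6.29 in PWK/PhJ over 31 positions (adjusted p = 0.00272). The share of all genes called was 7.98% for these lists too.

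The label of the cells could be checked only in part. Of 6 hepatocyte markers, Apoa2 alone had usable positions at its start, at 0.832%. The starts of Des, Lrat, Krt7 and Epcam, markers of stellate and bile duct cells, were at 13.7%, 6.03%, 24.3% and 11.2%. No immune or endothelial marker start could be read, so the content of other cell types was not tested.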

How the data were processed

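DNA methylation was measured by RRBS in hepatocytes of 27 mice of 9 strains. The authors deposited, for each sample, single positions with a percent methylation from 0 to 100, per the file headers, with no read counts. The submitters' processing notes name Trim Galore 0.6.3, Bowtie2, Bismark 0.22 and the builds GRCm38 and mm10; any coverage minimum is not given in the sources used here. Positions were matched to RefSeq gene spans and starts of GRCm38.p6, and all 236 positions in the promoter windows of these genes fell on a CpG. The mitochondrial chromosome is named M in the C57BL/6J files and MT in the others.

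The planned quasi-binomial model of read counts and its coverage minimum could not be run, because the files hold no counts. Mean percent per gene, start, position or 1 kb tile was tested over the 9 strains with the moderated F test of limma on log2((percent + 5)/(100 - percent + 5)), with Benjamini-Hochberg adjustment over all features. The test was computed in Python 3.11.15 and, for genes and starts, gave the same calls as limma 3.58.1; it was tested on simulated data. Missing values, 0.960% of those used, were filled with the mean of the strain's other samples, except at single positions. All positions of a gene were filled in 5 gene by sample values, 4 in Ugt2a3 and 1 in Sult2a4. Genes and starts needed at least 3 positions and a range of strain means of 10 points, tiles at least 5 positions and 25 points, and single positions 25 points; positions and tiles with a mean outside 2.5 to 97.5% were not tested. Each strain was also set against the mean of the other 8 at the gene level.

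Groups came from the strain in the labels. The labels count the replicates as biological, and mice are taken as the samples. Genes described in full were Gstm1, Gstp1, Ugt2b1 and the 10 called genes with the largest range. The rule also took the 10 called starts with the largest range and the genes of the 10 called tiles with the largest range. Other conjugation genes described with values, such as Ugt2a3, Sult2a3, Gsta3 and Gstp3, fell outside this rule and were named after their values were seen. The genes and lists were chosen with earlier results of these data known. Alternatives were leaving out each sample, a replicate block, other offsets, windows, minimum ranges and filters, and 4 added after the data were seen.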

Additional observations from a re-analysis of the deposited data

How the results depend on the processing

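Leaving out each sample in turn gave 12 to 17 called genes in place of 14, 1 to 3 starts in place of 2, 32 to 39 positions in place of 37, 3 to 5 tiles in place of 4, 16 to 24 calls of a gene in a strain in place of 18, and 3 to 4 pathway genes in place of 3. The count of starts rests on Gstm3, whose call at the start held in only 5 of the 27 fits. The Gstm3 call over the gene was lost with an offset of 1 point (adjusted p = 0.108) and without any 1 PWK/PhJ sample, and the Sult2a4 call over the gene with that offset (adjusted p = 0.137). The call at the start was also lost with an offset of 1 point, nothing filled, a window of 500 bp, neighbouring positions averaged or the end of the span as the start, with adjusted p between 0.0506 and 0.141. An offset of 1 point left 1 start and 23 positions. With nothing filled, a 500 bp window or neighbouring positions averaged, 1 start remained called. With at least 10 positions, 0 starts and 10 calls of a gene in a strain remained. A minimum of 25 points left 8 genes, 8 calls of a gene in a strain and 1 pathway gene, and with no minimum there were 4 starts, 40 calls of a gene in a strain and 11 pathway genes. Tiles rose to 11 with a minimum of 10 points and to 10 with at least 3 positions. Counting the Ugt1a genes as 1 gene left 7 called genes. Without positions inside a gene of another family, the NOD/ShiLtJ minus WSB/EiJ difference was -4.90 points in Ugt1a10 and Ugt1a9, -4.92 in Ugt1a8 and Ugt1a7c, and -0.123 in Ugt1a6b, Ugt1a6a and Ugt1a5. For the lost calls other than those from fewer positions or samples or from another minimum, the cause was not tested.

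With a replicate block, 14 genes, 3 starts, 32 positions, 5 tiles, 17 calls of a gene in a strain and 3 pathway genes were called, and each gene, start or tile of these families called by the F test stayed called. Gstm1, which was not called, had an adjusted p of 0.0282 over the gene and 0.0468 at the start with the block, and its range of 6.45 points stayed under the minimum of 10. Deviations of same-numbered samples of different strains from their strain means had a mean r of 0.00562 across genes (76 pairs, highest 0.0990). For differently numbered samples of different strains it was -0.00172 (248 pairs, highest 0.0982). Whether the numbers stand for a shared batch was not tested. The alternative with a coverage minimum was not run, since the files hold no coverage. Depth limits every value to an unknown precision.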

Other observations

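Some positions near these genes were listed in all 3 samples of some strains and in none of the samples of the rest, and so stayed outside the comparisons above. There were 417 such positions, or 14.4% of those listed near these genes in any sample, beside 13.8% of all listed positions. PWK/PhJ was the only strain without them at 52, or 12.5%, beside 9.75% of such positions over the genome. CAST/EiJ was the only strain without them at 28, or 6.71%, beside 9.95%, and C57BL/6J at 17, or 4.08%, beside 0.560%. CAST/EiJ was the only strain with them at 64, or 15.3%, beside 14.3%, and PWK/PhJ at 35, or 8.39%, beside 12.5%. These shares were not tested against each other, and neighbouring positions share reads: the 17 of C57BL/6J were all in Ugt8a. DBA/2J and NZO/HlLtJ were never the only strain on either side, and their shares over the genome were also small. There DBA/2J was the only strain without such positions at 0.399% and the only one with them at 0.631%. For NZO/HlLtJ these shares were 0.444% and 0.704%.

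Gsta3, an alpha-class gene with no usable position, had 8 positions listed in CAST/EiJ and PWK/PhJ only, at a mean of 33.4%, and 5 listed in PWK/PhJ only, at 86.0%. Gstp3, the third pi-class copy, had 12 positions listed in CAST/EiJ only, at a mean of 22.1%. In Ugt8a, 23 positions were listed in A/J, CAST/EiJ and PWK/PhJ only, at a mean of 10.2%, and 17 in every strain but C57BL/6J, at 2.97%. Sult4a1, which is expressed in brain, lacked 17 positions in PWK/PhJ alone, at a mean of 46.1% in the other 8 strains. Whether these gaps come from sequence differences between strains was not tested.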
